A study of Mus musculus with 6 samples.

Results

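The Hippo pathway and the genes controlled by its effectors YAP and TAZ were examined in sorted keratinocytes of hair bulge (HB) origin with and without integrin α3. The 36 genes were chosen by name: 22 core genes (6 effectors, 7 kinase core genes and 9 regulators) and 14 YAP/TAZ target genes other than the CCN genes, out of 22295 genes in the count table. At least 1 read was counted for 35 of them, and 34 had at least 10 counts in every library.

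RNA was sequenced from GFP-positive keratinocytes that were FACS-sorted from the back skin epidermis of 3 K19 *Itga3* WT and 3 K19 *Itga3* KO mice, giving 6 libraries. The question was how the loss of α3β1 alters gene expression in HB cells while tumors are being initiated. Both lines were bred on FVB, which the methods of the study give as FVB/N, and carried the tamoxifen-inducible Cre-ERT under the K19 promoter, which is active in HB cells, together with the mTmG reporter, which turns a cell and its progeny GFP-positive once Cre has acted. Only the KO line carried Itga3 fl/fl. Per the sample descriptions, mice of both lines received tamoxifen at 10 mg/ml on 4 days at 6 weeks of age, 1 dose of 30 µg of the carcinogen DMBA at 7 weeks, and then bi-weekly applications of 12.34 µg of the tumor promoter TPA for 2 weeks. The methods of the study give a lower concentration for the tamoxifen injections, a start some days earlier and added topical tamoxifen, a difference that could not be settled here. After the treatment the study saw GFP-positive cells in the layers of growing follicles, and at times in the upper follicle and the epidermis between follicles. The sorted cells are thus of HB origin and need not have lain in the bulge. There was no untreated group and no *Itga3* fl/fl group without Cre, so the comparison is of genotypes within treated skin. The columns of the count table name the genotype but not the sample number, so a letter (WT a to WT c, KO a to KO c, following the column order) stands for each library.

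The libraries held 20578309 to 23670507 counts, and 3 counts, taken as the detection floor, corresponded to 0.128 to 0.145 CPM (counts scaled to the size of the library). *Itga3*, counted over the whole gene, was at 371, 252 and 271 CPM in the WT and at 131, 124 and 134 CPM in the KO libraries (log2 fold change −1.204, SE 0.13, edgeR adjusted p = 0.00283), which follows the labels. The 8 markers listed for bulge keratinocytes were abundant, with *Krt5* at 19738 ± 4970.4 CPM and *Krt15* at 12516 ± 2837 CPM in WT (SD, n = 3). Their summed level was 31947 to 48876 CPM in WT and 37192 to 43191 CPM in KO. Keratin genes made up most of this sum. *Krt5* and *Krt14* mark basal keratinocytes in general, so the sum says little about the bulge alone. Of the 8 markers 1 was called, *Cd34*, which was lower in KO (adjusted p = 0.0462, edgeR). *Lgr5* was lower with overlapping groups (log2 fold change −0.47, SE 0.17, edgeR adjusted p = 0.283), while *Krt14* and *Sox9* had positive log2 fold changes (0.18 and 0.16). WT a and WT b lay farther from their group than the others, with a median absolute log2 deviation of 0.181 in WT b and 0.172 in WT a against 0.110 to 0.142 in the rest, and WT b had the lowest summed bulge markers. Pairs of libraries were also compared by chi-square per degree of freedom, where smaller means more alike. WT a was nearer to KO b (16.1) than to WT c (25.8) or WT b (55.6). WT c was also nearest to KO b (21.7), while WT b and the KO libraries were nearest to 1 of their own genotype. In bulk libraries such as these, fewer cells of a type and less RNA per cell cannot be told apart.

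In the Hippo pathway, the kinases MST1 and MST2 with the scaffold SAV1 activate the kinases LATS1 and LATS2, which act with MOB1 and phosphorylate YAP and TAZ, so that these are kept in the cytoplasm or degraded. When the kinases are quiet, YAP and TAZ enter the nucleus and drive transcription together with the TEAD factors, which bind DNA. In skin, YAP and TAZ act in basal and hair follicle keratinocytes, and adhesion to the matrix through integrins is among the signals known to act on them. Much of this control acts on protein phosphorylation and location, which RNA levels do not show.

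All 22 core genes were transcribed in the sorted keratinocytes. To set genes side by side, levels were divided by the length of all annotated exons of the gene, and the median of all genes tested was then 1.56 CPM per kb in WT. Per kb, *Mob1a*, which encodes a LATS activator, had the highest level of the core genes (60.0 ± 3.96 CPM per kb in WT, SD, n = 3), ahead of *Ajuba* at 48.6 ± 7.82, *Yap1* at 32.0 ± 0.623 and *Vgll4* at 31.4 ± 4.83. The WT ranges of *Mob1a* and *Ajuba* overlapped, but within every library *Mob1a* was the higher. *Yap1* was above *Vgll4* in WT a and WT b, while *Vgll4* was the higher in WT c and in every KO library. In KO, *Vgll4* was at 41.3 ± 3.54 and *Yap1* at 30.9 ± 0.21 CPM per kb. The order depended on the length used: divided by the longest transcript, *Vgll4* was at 77.05, *Mob1a* at 65.1, *Yap1* at 56.0 and *Ajuba* at 52.2 CPM per kb in WT, so that *Vgll4* came before *Mob1a* and *Yap1* before *Ajuba*. *Amot* had the lowest level of the core genes, at 1.01 ± 0.116 CPM per kb. Per kb of exon, *Yap1* exceeded *Wwtr1*, which encodes TAZ, in every library, with 32.0 ± 0.623 against 16.5 ± 2.37 CPM per kb in WT and 30.9 ± 0.21 against 20.8 ± 0.538 in KO. Among the TEAD genes *Tead3* was the highest in WT (12.7 ± 1.39 CPM per kb), *Tead4* followed with a wide spread (9.73 ± 4.23), and *Tead2* and *Tead1* did not differ beyond their spread (5.75 ± 0.185 and 5.68 ± 0.482). The targets covered a wider span, from *Myof* at 63.5 ± 6.03 and *Crim1* at 51.7 ± 3.03 CPM per kb down to *Nuak2* at 1.41 ± 0.335. *Foxf2*, a forkhead factor gene, had 0 to 2 counts per library and so stayed under the floor, and *Ankrd1*, a widely used YAP/TAZ target, was listed at 0 counts in all 6 libraries, which allows up to 0.145 CPM in the shallowest library. These limits cover counting error only.

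**Figure D1:**
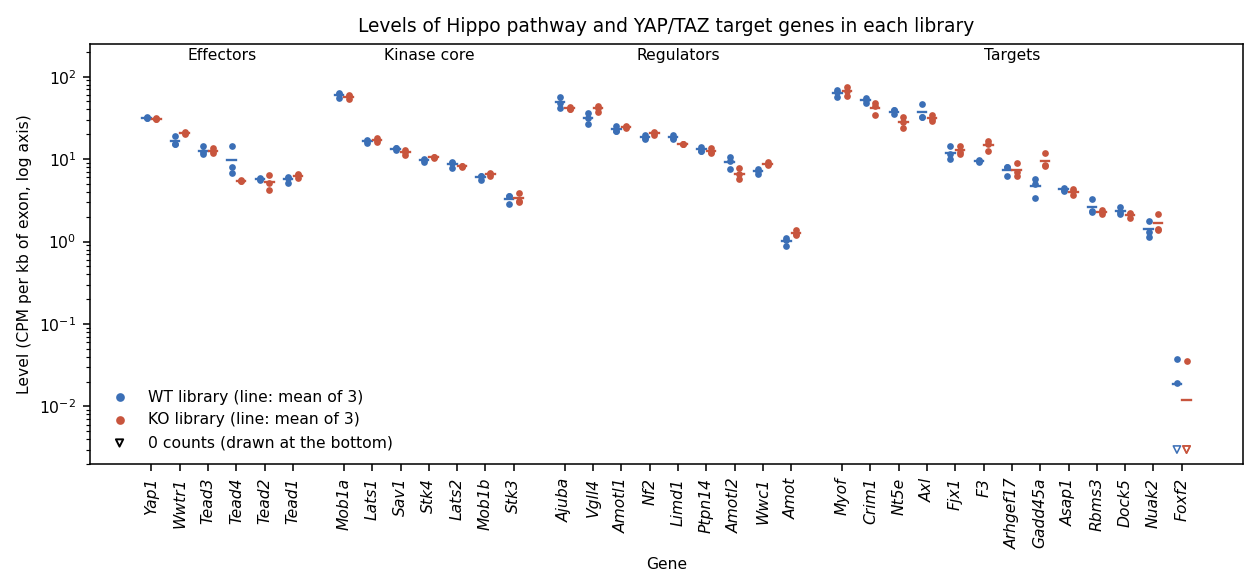
Level of each gene in each of the 6 libraries, in CPM per kb of exon on a log axis, by role, with blue points for WT, red points for KO and a line for the mean of 3 libraries; *Ankrd1*, with 0 counts throughout, is not drawn. The 22 core genes lie between 1.01 and 60.0 CPM per kb in the WT means, while *Foxf2* lies far under all other genes drawn, with open triangles for libraries with 0 counts.

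Between KO and WT, 2 of the 35 genes passed an adjusted p of 0.05 in edgeR's quasi-likelihood test, *F3* and *Gadd45a*, both targets and both higher in KO. Of all 21681 genes tested, 0.673% were called, and 0.461% were called with a higher level in KO. None of the 22 core genes was called, and 7 of them had an unadjusted p under 0.05, 4 higher and 3 lower in KO. With 4 of the targets, 11 of the 34 genes that reached 10 counts in each library had an unadjusted p under 0.05 (32.4%), 6 higher and 5 lower in KO. Among all genes this share was 11.5%, and it was 16.5% among the 13054 genes that reached 10 counts in each library. The KO and WT libraries did not overlap for 12 of the 34 genes (35.3%), 7 above and 5 below WT, against 21.8% of those 13054 genes. For each of the 12 the exact two-sided permutation test of the CPM gave p = 0.1, the smallest p that 3 against 3 libraries allow. Fold changes are given as log2, KO minus WT, with their SE or 95% interval, and adjusted p-values are from edgeR unless another tool is named.

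As groups, neither the core genes nor the targets were shifted in one direction. The median log2 fold change was −0.001 over the 22 core genes and −0.05 over the 12 targets with at least 10 counts (−0.09 over the 13 tested, with *Foxf2*), while the median over all genes tested was 0.00. Library by library, the median log2 difference of the core genes from their WT mean was −0.05 to 0.04 in WT and −0.04 to 0.07 in KO, and that of the targets was −0.08 to 0.04 in WT and −0.10 to −0.03 in KO, so the 2 genotypes overlapped for both groups of genes. With the mean in place of the median, the targets were at −0.04 to 0.05 in WT and at 0.02 to 0.09 in KO, which overlapped with the other sign. Within the core, the medians of the 9 regulators did not overlap, at −0.04 to 0.02 in WT and 0.07 to 0.10 in KO. Their means did overlap, at −0.02 to 0.04 and −0.01 to 0.05. Single genes moved about as much as genes in general, with a median absolute log2 fold change of 0.15 over the 34 genes and 0.14 over the 13054. For 19 of the 34 genes it was under 0.2.

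**Figure D2:**
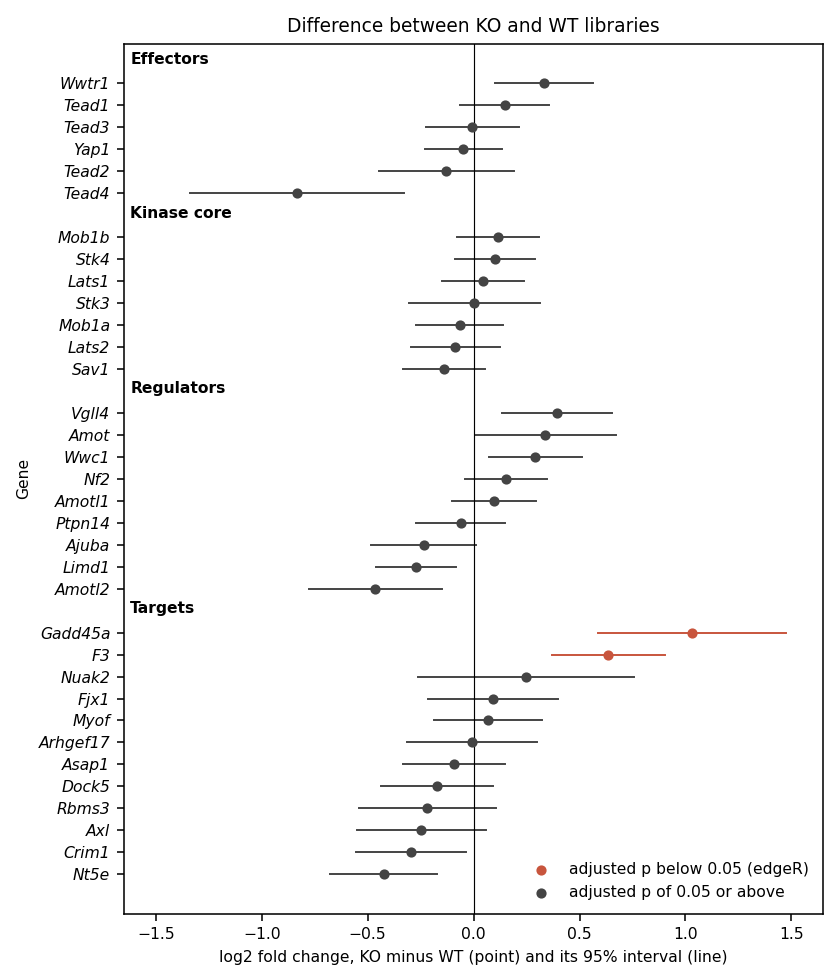
Difference between KO and WT for the 34 genes that reached 10 counts in each library, as the log2 fold change (point) with its 95% interval (line) from edgeR, ordered within each role. The intervals of *F3* and *Gadd45a*, drawn in red, lie farthest above 0, that of *Tead4* lies farthest below 0, and all 7 genes of the kinase core have intervals that include 0.

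The effectors themselves were read at nearly the same level in both genotypes for YAP and less evenly for its partners. *Yap1* was at 302, 291 and 295 CPM in the WT and at 286, 288 and 284 CPM in the KO libraries. The KO libraries lay just under the lowest WT library, and the difference was small (log2 fold change −0.05, 95% interval −0.23 to 0.13, edgeR adjusted p = 0.848). *Wwtr1* (TAZ) was at 92.1, 72.8 and 72.1 CPM in WT and at 102, 98.6 and 97.5 CPM in KO. All KO libraries were above all WT libraries, with WT a nearest to them, and *Wwtr1* did not pass the adjusted threshold (0.33, SE 0.11, adjusted p = 0.211, edgeR). Without WT a it passed (0.46, adjusted p = 0.0291), and without any other library it did not.

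*Tead4* (chr6:128224288-128300823, GRCm38), which encodes a TEAD factor, had the largest fitted decrease of the core genes and also the most uneven WT values. It was at 24.1, 52.4 and 28.5 CPM in WT and at 19.5, 19.9 and 19.5 CPM in KO. All KO libraries were below all WT libraries, and WT b stood far above the rest. The log2 fold change was −0.83 (SE 0.23) with an adjusted p of 0.148 in edgeR. It was −0.42 (adjusted p = 0.212) without WT b, and −1.04 (adjusted p = 0.0211) without WT a. The targets *Axl* and *Rbms3* were also highest in WT b, the WT library with the lowest bulge marker sum. That sum is mostly keratins, and the markers *Sox9* and *Lhx2* were lowest in WT c, the others in WT b. The part of the differences between the WT libraries in the values of *Tead4*, *Axl* and *Rbms3* was not tested. The other TEAD genes overlapped between the genotypes. *Tead1* was at 79.0, 82.4 and 69.7 CPM in WT and at 79.4, 86.0 and 90.6 CPM in KO (0.15, 95% interval −0.06 to 0.36, adjusted p = 0.627). *Tead2* was at 27.6, 28.4 and 26.6 CPM in WT and spread more widely in KO, at 20.3, 24.3 and 31.0 CPM (−0.13, interval −0.45 to 0.19, adjusted p = 0.729). *Tead3* was at 78.1, 95.9 and 82.0 CPM in WT and at 84.5, 79.7 and 90.7 CPM in KO (−0.01, interval −0.23 to 0.21, adjusted p = 0.999). The TEAD genes thus gave no common direction, and *Tead4* alone of them had groups that did not overlap.

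The promoters of the core genes often held the letters that TEAD factors bind. Of the 36 genes, 27 had RefSeq promoter windows (33 windows in all, build GRCm38.p6), and the 250 bases before each start were searched on both strands for GGAATG, the core of the TEAD motif. It occurred in 14 of the 33 windows (42.4%), among them 11 of 23 windows of core genes (47.8%) and 3 of 10 windows of targets (30%), against 12.6% of all 32851 windows. Windows of the same gene can overlap, and the 14 windows belonged to 12 genes: *Yap1*, *Wwtr1* and *Tead3* of the effectors, *Mob1a* and *Sav1* of the kinase core, *Vgll4*, *Amotl2*, *Ajuba* and *Ptpn14* of the regulators, and *Axl*, *Crim1* and *Ankrd1* of the targets. The windows were also richer in GC than all windows, with a median of 64% against 52.4%, and no matched comparison was made. A match is a description of the letters and not a shown binding site. *Yap1* and *Wwtr1* each held 1 match on the coding strand, 141 and 136 bases before the start, and the sequences are shown because they belong to the 2 coactivators that TEAD factors recruit. They are at chr9:8004597-8004846 and chr3:57575911-57576160, both on the minus strand, and the matches are in capitals.
Yap1: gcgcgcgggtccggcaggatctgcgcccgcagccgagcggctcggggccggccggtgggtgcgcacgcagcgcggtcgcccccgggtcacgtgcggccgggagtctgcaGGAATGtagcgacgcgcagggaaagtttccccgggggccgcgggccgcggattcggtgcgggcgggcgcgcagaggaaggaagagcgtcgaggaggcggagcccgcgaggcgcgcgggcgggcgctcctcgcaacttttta
Wwtr1: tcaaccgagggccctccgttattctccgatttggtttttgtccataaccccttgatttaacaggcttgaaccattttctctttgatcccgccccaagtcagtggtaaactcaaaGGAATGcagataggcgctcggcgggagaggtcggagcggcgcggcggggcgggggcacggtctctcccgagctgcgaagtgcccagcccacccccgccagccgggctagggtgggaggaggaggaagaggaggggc

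Among the roles, the kinase core differed least between the genotypes, with a median absolute log2 fold change of 0.09, against 0.14 for the effectors, 0.27 for the regulators and 0.23 for the targets. It also had the smallest median within-group SD of log2 CPM, 0.08, against 0.14, 0.11 and 0.20. For other Hippo genes with at least 10 counts, described below, the median absolute log2 fold change was 0.08, so the small differences were not particular to the kinase core. All 7 genes had an absolute log2 fold change under 0.2, from −0.14 to 0.12, and adjusted p-values of 0.618 or higher in edgeR. *Sav1*, the scaffold of the MST kinases, was at 68.0, 71.6 and 71.0 CPM in WT and at 68.0, 63.7 and 59.6 CPM in KO, and the groups overlapped by 1 KO library (−0.14, 95% interval −0.33 to 0.06, adjusted p = 0.618). *Mob1b*, which encodes a LATS activator, was at 93.3, 83.7 and 94.7 CPM in WT and at 102, 94.5 and 98.2 CPM in KO, which overlapped too (0.12, interval −0.08 to 0.31, adjusted p = 0.671). *Stk4*, which encodes MST1, was the 1 gene of the kinase core whose groups did not overlap, at 59.2, 57.9 and 54.7 CPM in WT and at 62.9, 61.4 and 60.2 CPM in KO (0.10, SE 0.09, adjusted p = 0.681). For the kinase genes, the 95% interval of *Lats1* ran from −0.15 to 0.24, that of *Lats2* from −0.30 to 0.12, and that of *Stk4* from −0.09 to 0.29. *Stk3*, which encodes MST2 and was the lowest of the group per kb, had the widest one (−0.31 to 0.31). Of the exon bases of *Lats2* in GENCODE M21, 42.4% are shared on the same strand with another annotated gene. Whether the annotation used for the counts held that gene was not checked, so the counts of *Lats2* remain uncertain.

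**Figure D3:**
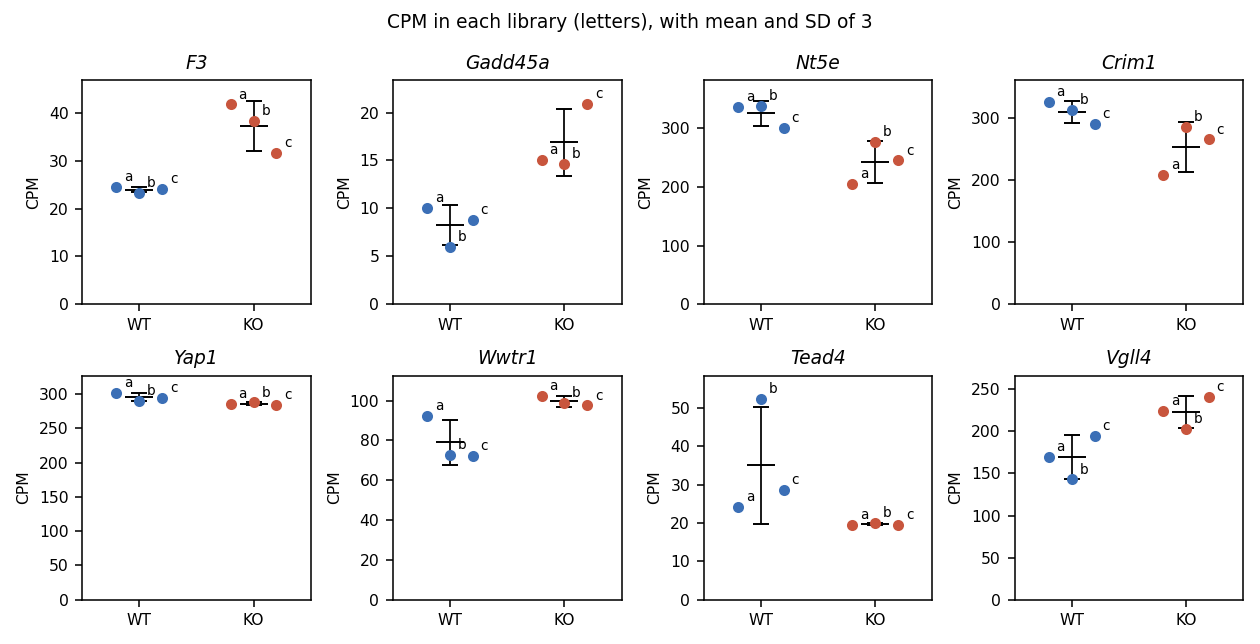
CPM of 8 genes in each library (letters a to c), with the mean and SD of 3 libraries, for 4 targets (top) and for 3 effectors and *Vgll4* (bottom), on axes that start at 0. *F3* and *Gadd45a* are higher in every KO library, *Nt5e* and *Crim1* lower in every KO library, *Yap1* differs little, and the WT mean of *Tead4* is raised by WT b.

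The regulators include inhibitors and activators of YAP, and those with a small unadjusted p lay in both directions. *Vgll4*, which encodes a protein that competes with YAP for TEAD factors, was at 170.0, 143 and 195 CPM in WT and at 224, 203 and 241 CPM in KO. Every KO library was above every WT library (0.39, SE 0.12), with an adjusted p of 0.186 in edgeR, and *Vgll4* passed in none of the 13 alternatives tried. *Amotl2*, an angiomotin gene whose product holds YAP in the cytoplasm, was at 67.6, 59.3 and 47.2 CPM in WT and at 48.7, 41.3 and 36.2 CPM in KO. The highest KO library overlapped the lowest WT library (−0.46, SE 0.14, adjusted p = 0.201, edgeR). The other angiomotin genes had positive fold changes, *Amot* with 0.34 (SE 0.15, adjusted p = 0.427) and *Amotl1* with 0.10 (SE 0.09, adjusted p = 0.681).

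*Limd1* and *Ajuba* encode LIM proteins that bind and restrain the LATS kinases. *Limd1* was at 106, 119.5 and 107 CPM in WT and at 91.6, 92.9 and 90.8 CPM in KO. The 3 KO libraries lay close together under all WT libraries (−0.27, SE 0.09, adjusted p = 0.213, edgeR). *Ajuba* had a fold change in the same direction with overlapping groups (−0.24, SE 0.11, adjusted p = 0.461). *Wwc1*, which encodes the upstream scaffold KIBRA, was at 32.9, 37.8 and 35.6 CPM in WT and at 45.5, 41.8 and 42.8 CPM in KO, so every KO library was above every WT library (0.29, SE 0.10, adjusted p = 0.264). *Nf2*, which encodes the upstream activator Merlin, had a fold change of 0.15 (SE 0.09, adjusted p = 0.571), and *Ptpn14*, a phosphatase gene whose product binds YAP, of −0.06 (SE 0.10, adjusted p = 0.827). In all, 5 of the 9 regulators had an unadjusted p under 0.05, 3 higher (*Vgll4*, *Wwc1* and *Amot*) and 2 lower (*Amotl2* and *Limd1*), and none passed the adjusted threshold.

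Among the targets, the highest fold changes belonged to *Gadd45a* and *F3*. *F3* (chr3:121723537-121735052, GRCm38) encodes tissue factor, the initiator of blood coagulation. It was at 24.5, 23.4 and 24.1 CPM in WT and at 41.8, 38.3 and 31.6 CPM in KO. The WT libraries were nearly equal and every KO library was above them, at 155% of the WT mean (23.98 ± 0.563 against 37.2 ± 5.19 CPM, SD, n = 3). The log2 fold change was 0.63 (SE 0.12, 95% interval 0.37 to 0.90, edgeR adjusted p = 0.0448). *Gadd45a* (chr6:67035096-67037457), a stress and DNA damage response gene, was at 10.0, 6.00 and 8.77 CPM in WT and at 15.1, 14.7 and 20.9 CPM in KO. Every KO library was above every WT library, at 204% of the WT mean (8.26 ± 2.05 against 16.9 ± 3.48 CPM), and the log2 fold change was 1.03 (SE 0.20, 95% interval 0.585 to 1.48, edgeR adjusted p = 0.0472).

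Both adjusted p-values were close to the threshold and depended on the test. In limma-voom, the tool of the study's methods, they were 0.127 for *F3* and 0.135 for *Gadd45a*, and in DESeq2 both were 0.000813. With the test limited to genes that reached 10 counts in each library they were 0.127 and 0.133. With 1 library left out, *F3* passed only without WT a and *Gadd45a* only without WT a or KO b, with the highest adjusted p, 0.368 for both, without WT c. The fold changes moved little over all 13 alternatives, from 0.54 to 0.74 for *F3* and from 0.846 to 1.197 for *Gadd45a*.

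**Figure D4:**
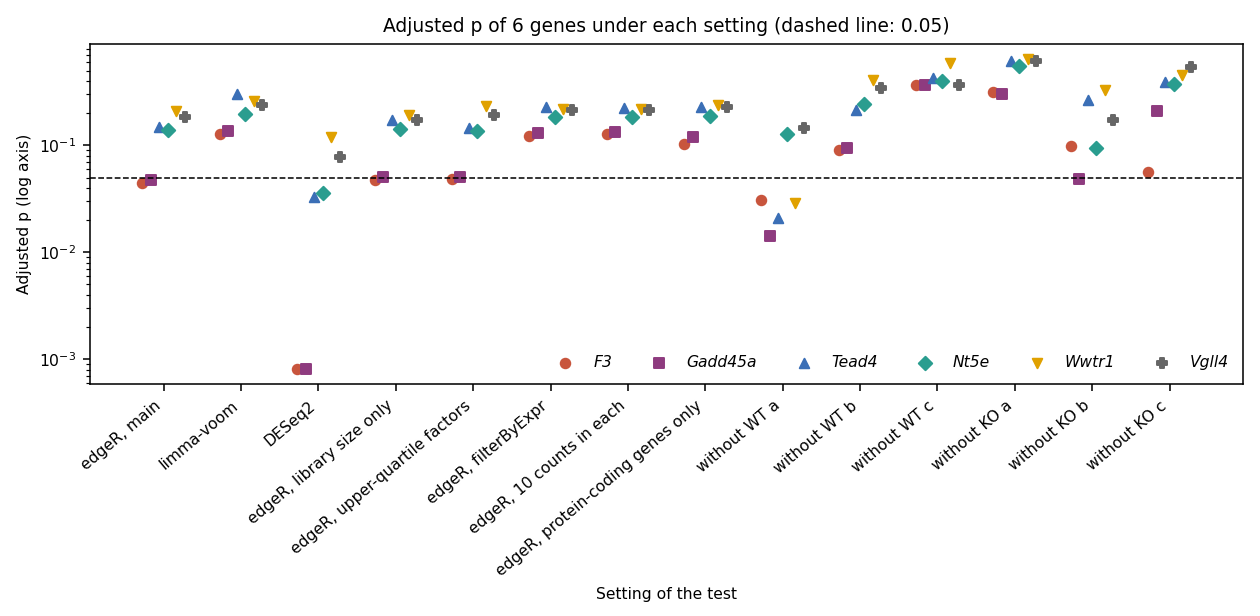
Adjusted p of *F3*, *Gadd45a*, *Tead4*, *Nt5e*, *Wwtr1* and *Vgll4* in the test used throughout (left) and in 13 alternatives, on a log axis, with a dashed line at 0.05. *F3* and *Gadd45a* lie just under the line at the left, far under it in DESeq2 and above it in limma-voom, while *Vgll4* lies above it throughout.

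The targets *Nt5e* and *Crim1* had fold changes in the other direction. *Nt5e*, which encodes the adenosine-producing surface enzyme CD73, was at 336, 338 and 301 CPM in WT and at 205, 277 and 245 CPM in KO. Every KO library was below every WT library, with KO a the lowest (−0.42, SE 0.12, 95% interval −0.68 to −0.17), and the adjusted p was 0.140 in edgeR and 0.0361 in DESeq2. *Crim1*, which encodes a transmembrane protein that binds growth factors of the BMP family, was at 326, 313 and 290.1 CPM in WT and at 208, 285 and 265 CPM in KO. The groups did not overlap, KO a again being the lowest (−0.29, SE 0.12, adjusted p = 0.364, edgeR). Of the other 8 targets with at least 10 counts, all overlapped between the groups. Their log2 fold changes ran from −0.25 for *Axl*, a receptor tyrosine kinase gene (SE 0.14, adjusted p = 0.559), to 0.25 for the kinase gene *Nuak2* (SE 0.23, adjusted p = 0.681). Between them were the RNA-binding protein gene *Rbms3* (−0.22, adjusted p = 0.638), *Dock5* and *Asap1*, which encode regulators of small GTPases (−0.17 and −0.09, adjusted p = 0.638 and 0.741), and *Arhgef17* (−0.01, adjusted p = 0.999). *Myof*, a gene of plasma membrane repair and the highest target per kb, was at 0.07 (adjusted p = 0.844) and *Fjx1* at 0.09 (adjusted p = 0.814).

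The promoters of 2 targets are shown for the letters they hold. The window of *F3* had no TEAD letters and 2 matches to TGANTCA, a form of the motif of the AP-1 factors in which N is any base. They lay 146 and 135 bases before the start, and this motif reads the same on both strands. It was the 1 window of the 33 with such a match (3.03%, against 6.75% of all windows). The window of *Ankrd1*, the target listed at 0, had 2 TEAD matches, 210 and 123 bases before the start, so that these letters stood in the window of a target with no reads. The window of *Gadd45a* held neither motif. The sequences, with the matches in capitals, are at chr3:121723287-121723536 on the plus strand and at chr19:36119845-36120094 on the minus strand.
F3: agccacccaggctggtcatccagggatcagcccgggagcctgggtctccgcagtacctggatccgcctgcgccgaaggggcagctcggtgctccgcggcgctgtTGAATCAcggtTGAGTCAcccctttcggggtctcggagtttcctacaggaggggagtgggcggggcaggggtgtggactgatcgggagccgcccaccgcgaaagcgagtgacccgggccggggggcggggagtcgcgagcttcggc
Ankrd1: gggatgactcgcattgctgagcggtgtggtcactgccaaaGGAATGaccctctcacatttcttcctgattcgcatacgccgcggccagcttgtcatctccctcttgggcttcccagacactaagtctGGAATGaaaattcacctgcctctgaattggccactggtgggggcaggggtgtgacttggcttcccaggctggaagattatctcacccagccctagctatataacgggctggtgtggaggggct

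Of 45 other genes of the Hippo pathway that were tested (MAP4K, TAO and STRIPAK kinases and scaffolds, FAT and polarity proteins and others), none passed in edgeR, and 5 had an unadjusted p under 0.05, all with higher values in KO. These 5 were 11.4% of the 44 genes of this list with at least 10 counts in each library. The share was 16.5% among all 13054 genes with that minimum, so the list did not exceed it. DESeq2 called 1 of them and limma-voom none. *Crb3*, a gene of apical polarity, was at 17.5, 19.4 and 20.1 CPM in WT and at 26.4, 21.9 and 23.2 CPM in KO. Every KO library was above every WT library, with a log2 fold change of 0.32 (SE 0.12, adjusted p = 0.316, edgeR). The kinase gene *Tnik* had a log2 fold change of 0.26 (SE 0.11, adjusted p = 0.369). The median log2 fold change of the 45 genes was 0.04.

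Of 19 other genes named as YAP/TAZ targets, 1 was called, against 0.673% of all genes tested. Of the 17 with at least 10 counts in each library, 2 had an unadjusted edgeR p under 0.05 (11.8%). The groups did not overlap for 2 of the 17 (11.8%). Both shares were under those of all 13054 genes with that minimum, 16.5% and 21.8%. The called gene was the one that the study itself had singled out from these libraries. *Ctgf*, which encodes the CCN protein CCN2, was at 797, 582 and 795 CPM in WT and at 238, 280.4 and 218 CPM in KO. It was far lower in every KO library (−1.56, SE 0.14, adjusted p = 0.00054, edgeR), in the direction opposite to *F3* and *Gadd45a*. Without WT c the fold change of *Ctgf* was −1.49 with an adjusted p of 0.0926, and 0 of the 19 were called. *Cyr61*, which encodes CCN1, was at 698, 311 and 412 CPM in WT and at 385, 426 and 277 CPM in KO. Its WT libraries spread widely and the groups overlapped (−0.39, SE 0.24, adjusted p = 0.614). *Thbs1*, the thrombospondin-1 gene, had a fold change of −0.49 with overlapping groups (SE 0.15, adjusted p = 0.206), and *Krt18* was under 1 CPM in every library. Over the 19 genes the median of the log2 fold changes was −0.05, and it was −0.12 over the 17 of them with at least 10 counts per library.

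Markers of other cells moved with the genotype in part. Of 7 fibroblast markers in the table, the summed level was 117 to 178 CPM in WT and 48.5 to 80.7 CPM in KO. *Col1a1* and *Col1a2* made up most of it, and none of the 7 was called. Not all fibroblast markers followed the direction of the sum. *Dcn* was at 0.826, 1.69 and 0.573 CPM in WT and at 5.44, 1.55 and 4.11 CPM in KO (1.84, SE 0.47, adjusted p = 0.113), *Col3a1* was at 0 in all WT libraries and at most 1.40 CPM in KO, and *Lum* stayed within the floor. The 6 melanocyte markers summed to 63.6 to 81.4 CPM in WT and 40.6 to 47.3 CPM in KO, mostly *Mitf*, which was called lower in KO (−0.93, SE 0.14, adjusted p = 0.0158, edgeR). The other 5 melanocyte markers had positive fold changes, from 0.08 for *Pmel* to 1.18 for *Mlana*, and none was called. Endothelial markers summed to 5.22 to 7.67 CPM in WT and 6.38 to 7.46 CPM in KO, mostly *Egfl7*, with 3 of 6 markers within the floor in every library. Immune markers summed to 5.63 to 10.9 CPM in WT and 6.08 to 9.43 CPM in KO, mostly *Cd74*, with *Lyz2* at 0 in all WT libraries, and muscle markers to 1.099 to 2.12 CPM in WT and 1.49 to 2.32 CPM in KO, mostly *Acta2*. The sums of the endothelial, immune and muscle markers overlapped between the genotypes. The part of other cells in the differences of *Nt5e*, *Crim1*, *Tead4* and the other genes was not tested.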

How the data were processed

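RNA sequencing of 6 libraries was analysed, 3 per genotype and each from 1 mouse. The authors sequenced strand-specific libraries of polyadenylated RNA as single reads of 65 bases, aligned them with TopHat2 2.1.0 and Bowtie 1.1 to the mouse genome GRCm38, and counted uniquely mapped reads per Ensembl gene with regard to strand, and the deposited values are these counts, without normalization. Reads with several matches were dropped. No gene studied here shares a 65-base stretch with another of them, and 33 of the 36 share under 2% of their stretches with any other gene. The exceptions are *Lats2* (40.8%), *Sav1* (24.5%) and *Gadd45a* (14.6%), the latter 2 with genes on the opposite strand.

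Here, KO was compared with WT by edgeR 4.0.16 (glmQLFit and glmQLFTest, TMM factors of 0.981 to 1.03, R 4.3.3) on the 21681 genes that had any count. P-values were adjusted over all of them by Benjamini and Hochberg, with a threshold of 0.05, and every adjusted p is from this fit unless another tool is named. CPM are scaled by TMM factors, and fold changes are log2, KO minus WT. Exact permutation tests cannot give a p below 0.1 with 3 against 3 libraries. Exon lengths came from GENCODE M21, which held 98.9% of the gene identifiers, and promoters from RefSeq. Of the identifiers found, 70.2% had the same gene coordinates as in the count table. Levels per kb thus divide counts over one annotation by exon lengths of another. Alternatives were limma-voom (limma 3.58.1), DESeq2 1.42.0, library size only, upper-quartile factors, filterByExpr, a minimum of 10 counts in each library, protein-coding genes only, and each library left out in turn. The code was tested on simulated counts. The genes and lists were chosen with earlier results of these data known. Values per library were to be given for genes past the threshold, effectors, and the 2 genes of smallest p per role and list, and *Limd1*, *Wwc1*, *Stk4*, *Nt5e* and *Crim1* were added after their values were seen. The values of 1 gene of the other lists are not reported here. Fold changes were not given for *Foxf2* and *Ankrd1*, which stayed under the floor.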

Additional observations from a re-analysis of the deposited data

How the results depend on the processing

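The count of 2 genes past the threshold, both targets, was 0 in limma-voom, after filterByExpr, with a minimum of 10 counts in each library and with protein-coding genes only, 1 (*F3*) with upper-quartile factors or library size only, and 4 in DESeq2 (*F3*, *Gadd45a*, *Nt5e* and *Tead4*). With 1 library left out it ranged from 0 to 4, with 0 to 2 targets and 0 to 2 core genes, and the 4 without WT a were *F3*, *Gadd45a*, *Tead4* and *Wwtr1*. DESeq2 called 1 core gene and 1 other Hippo gene. The count of other Hippo genes was 0 to 1 and that of other targets 0 to 1 with a library left out, *Ctgf* being lost without WT c at a fold change of −1.49. Over all genes the calls ranged from 5 without WT c to 546 in DESeq2, with 24 in limma-voom.

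Of 34 genes, 27 kept their direction in every alternative and 7 turned in at least 1, all with values near 0. With a library left out, the log2 fold change ranged from −0.304 to 0.00639 for *Tead2*, −0.0595 to 0.0861 for *Tead3*, −0.00303 to 0.0990 for *Lats1*, −0.121 to 0.0890 for *Stk3*, −0.166 to 0.110 for *Arhgef17*, −0.00572 to 0.157 for *Myof* and −0.0210 to 0.243 for *Fjx1*. The median of the core genes then ranged from −0.00238 to 0.0685 and that of the 13 targets tested from −0.109 to −0.00572. *Stk3* was at −0.0131 with upper-quartile factors, −0.000208 after filterByExpr and −0.00186 with the minimum of 10 counts. Levels per kb moved by more than 1 SD for 26 of 34 genes with the longest transcript in place of all exons, which turned the order of the highest core genes, and for 0 with library size only. No paired analysis was possible because the columns carry no replicate numbers.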
